A study of Homo sapiens with 6 samples.

Results

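The genes described here encode the nuclear RNA polymerases I, II and III, the mitochondrial RNA polymerase, and the initiation factors of polymerases I and III. Members were chosen by gene symbol, and 44 of the 17534 genes with a probe set naming them alone were members. Where several probe sets name a gene, the brightest by its mean over all 6 arrays stands for it; that brightness is the only measured value the choice used, and levels are not compared between genes. The classes hold 50 genes in all. Of the other 6, POLR2J2 and POLR2J4 are read here through probe sets that name further genes, and the others are not analysed here. A further 16 pseudogene, antisense and read-through symbols matched the rule by their first letters and had no probe set of their own here.

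Expression was measured on Affymetrix PrimeView arrays in MM.1R, an established line of human myeloma cells resistant to dexamethasone. In 3 arrays the cells had been given epirubicin hydrochloride, an anthracycline that intercalates into DNA and poisons topoisomerase II, and in 3 they carried a control hairpin construct delivered by infection (shCtrl). The labels name the vector for the shCtrl cells alone and give no dose or length of treatment, so the effects of the drug and of the construct cannot be told apart. Separate cultures are not stated for arrays of 1 group, and p-values reflect the spread among these arrays alone, which could be technical. The series' design text gives the thresholds used below, and the stated aim of the drug was to inhibit proliferation of the cells.

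RNA polymerase I transcribes the large ribosomal RNA precursor in the nucleolus, polymerase II transcribes messenger RNAs and most small nuclear RNAs, and polymerase III transcribes transfer RNAs, the small ribosomal RNA and other short RNAs. Each enzyme has its own catalytic core, stalk and associated subunits, a pair of assembly subunits is shared by polymerases I and III, and a set of small subunits is shared by all 3. The selectivity factor SL1 with UBTF and RRN3 brings polymerase I to its promoter, and TFIIIC and TFIIIB do this for polymerase III. Anthracyclines are known to disturb nucleolar transcription, as background.

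CDKN1A, a cell cycle inhibitor induced by p53, was 3.68-fold higher with epirubicin. Of 10 plasma cell markers, 9 lay above 5.54, the median of all values, in at least 1 group, and CD38 and IRF4 were called lower with epirubicin. CD27 was the exception, with group means of 4.16 with epirubicin and 4.13 with shCtrl. At a smaller fold and limma adjusted p under 0.05, XBP1 (-0.24) and PRDM1 (-0.12) were lower and SLAMF7 (0.23) was higher. The plasma cell list had a summed log2 value of 97.5 to 97.9 on epirubicin arrays and of 99.6 to 99.7 on shCtrl arrays. Of 8 myeloid markers ITGAM, CD68 and S100A9 were called higher, ITGAM with means of 6.99 with epirubicin and 3.25 with shCtrl, and the list had a summed log2 value of 35.5 to 36.1 on epirubicin arrays and of 30.5 to 30.6 on shCtrl arrays, while CD14, LYZ, FCGR3A and S100A8 had means below 3.84 in both groups, the lowest of the arrays' lower quartiles. In the stromal list 1 of 7 markers, ACTA2, was called higher, with sums of 29.2 to 30.1 on epirubicin arrays and 27.3 to 28.3 on shCtrl arrays, and DCN and LUM also lay below 3.84. Among 7 T and NK cell markers none was called, with sums of 33.6 to 34.0 on epirubicin arrays and 32.9 to 33.6 on shCtrl arrays. The part of these markers in the results below was not tested.

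Promoters are shown first for a few members with a RefSeq window, which POLR3G and POLR1E, called lower below, did not have. Shown are POLR1C, POLR1B and POLRMT, which were lower with epirubicin, and POLR2A, whose log2 difference was the highest among the polymerase II subunits. Each is the 300-base window around the start of the gene from RefSeq (GRCh38.p14), read on the gene's own strand and reaching into the first bases of the transcript. Capitals mark CCGGAAG or its reverse complement CTTCCGG, the core of sites bound by ETS factors, and the site of NRF1, which is the longer run of capitals in the POLRMT window, or its reverse complement. POLR1C lies at chr6:43516839-43517138 on the plus strand, the first of 2 listed promoters of POLR1B at chr2:112541786-112542085 on the plus strand, POLRMT at chr19:633488-633787 on the minus strand, and POLR2A at chr17:7484116-7484415 on the plus strand.
POLR1C: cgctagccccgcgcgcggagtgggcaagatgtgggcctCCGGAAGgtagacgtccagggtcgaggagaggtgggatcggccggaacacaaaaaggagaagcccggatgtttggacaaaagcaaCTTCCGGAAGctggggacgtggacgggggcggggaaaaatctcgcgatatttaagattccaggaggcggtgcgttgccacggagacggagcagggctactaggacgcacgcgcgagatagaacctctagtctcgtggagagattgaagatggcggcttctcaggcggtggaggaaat
POLR1B: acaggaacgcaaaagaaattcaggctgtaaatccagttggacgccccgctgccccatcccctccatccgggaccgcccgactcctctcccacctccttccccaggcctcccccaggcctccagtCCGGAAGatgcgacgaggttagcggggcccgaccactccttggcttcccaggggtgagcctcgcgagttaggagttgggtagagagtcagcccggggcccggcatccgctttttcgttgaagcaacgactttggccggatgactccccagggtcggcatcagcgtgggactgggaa
POLRMT: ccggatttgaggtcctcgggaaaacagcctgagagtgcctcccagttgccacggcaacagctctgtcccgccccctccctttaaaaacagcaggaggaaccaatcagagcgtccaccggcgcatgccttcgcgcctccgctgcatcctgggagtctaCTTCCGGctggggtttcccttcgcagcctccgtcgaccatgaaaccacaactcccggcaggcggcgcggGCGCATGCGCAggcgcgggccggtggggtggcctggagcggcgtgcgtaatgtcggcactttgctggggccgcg
POLR2A: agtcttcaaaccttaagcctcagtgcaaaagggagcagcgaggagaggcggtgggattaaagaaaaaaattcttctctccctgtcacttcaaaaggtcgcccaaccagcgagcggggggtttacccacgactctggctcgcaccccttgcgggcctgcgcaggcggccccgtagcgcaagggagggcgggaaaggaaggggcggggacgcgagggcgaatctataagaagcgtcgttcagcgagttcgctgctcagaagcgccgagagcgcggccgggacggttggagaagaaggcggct

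The POLR1C window held 3 ETS matches, of which a pair overlaps, the POLR1B window 1 and the POLRMT window 1 together with 1 NRF1 match. The POLR2A window held neither. RefSeq windows were given for 35 of the 44 members, and 18 of the 35 held the ETS letters in at least 1 window, against 16.9% of the 14155 measured genes with a window and 10.3% of all 35116 windows. The NRF1 letters stood in 5 of 35 members, against 1.18% of measured genes and 0.755% of all windows. Both strands were searched, and a match is a description of letters, not of a bound site.

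Most motifs searched stood both in members that fell and in others. Of the 15 members with a window that fell, 7 held the ETS letters, as did 11 of the 20 others. The E-box CACGTG, the site of MYC and related factors, stood in 5 of 35 members (GTF3C2, GTF3C4, GTF3C6, POLR1G and POLR3A), against 10.9% of measured genes and 7.26% of all windows. Of these, POLR1G and GTF3C4 fell. The GC box GGGCGG was present in 20 members, against 65.9% of measured genes and 45.0% of windows, and CCAAT in 12, against 42.5% and 34.6%. The GC box stood in 10 of the 15 that fell and 10 of the 20 others, and CCAAT in 4 and 8. TTTGAA, the element of cell cycle genes known as CHR, was found in 4 members and TATAAA in 2, against 15.95% and 12.1% of measured genes and 15.2% and 11.5% of windows. A shorter NRF1 core was found in 5 members, an E2F site in 1 and the ZNF143 site in 1, against 4.88%, 0.947% and 1.89% of measured genes and 3.05%, 0.515% and 0.988% of windows. The E2F site was in POLR1F and the ZNF143 site in POLR2E, which both fell. None of these searches was tested, and the motifs and the windows shown were chosen with the results of the comparison known.

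With epirubicin 21 of the 44 polymerase genes fell, mostly by small amounts, and 23 did not pass the test, of which 7 had a difference above 0. A gene is said to have fallen where its adjusted p in limma was under 0.05, and it is called lower where its fold was at least 1.3 as well, a log2 difference of 0.38 in size. In bulk RNA, fewer cells of a type and less RNA per cell cannot be told apart. By the first rule 21 of 44 members fell and 0 rose, against 13.5% of all genes that fell and 15.6% that rose. Nearly all members, 43 of 44, lay above the median of all values in at least 1 group. With dim genes, those not above that median in either group, left out, 26 members fell, against 28.1% of the 10087 genes kept. By the second rule, 3 of 44 were called lower and 0 higher, against 2.14% and 4.36% of all genes. The 3 were POLR3G, POLR1E and POLR1C. All 3 epirubicin arrays lay below all 3 shCtrl arrays for 29 members, against 20.1% of all genes, and above them for 2, against 23.8%. The median log2 difference of the members was -0.14, and that of all 17534 genes was 0.02. The members and the lists were chosen with earlier results of these data known, so the counts describe the members and are no independent evidence.

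**Figure D1:**
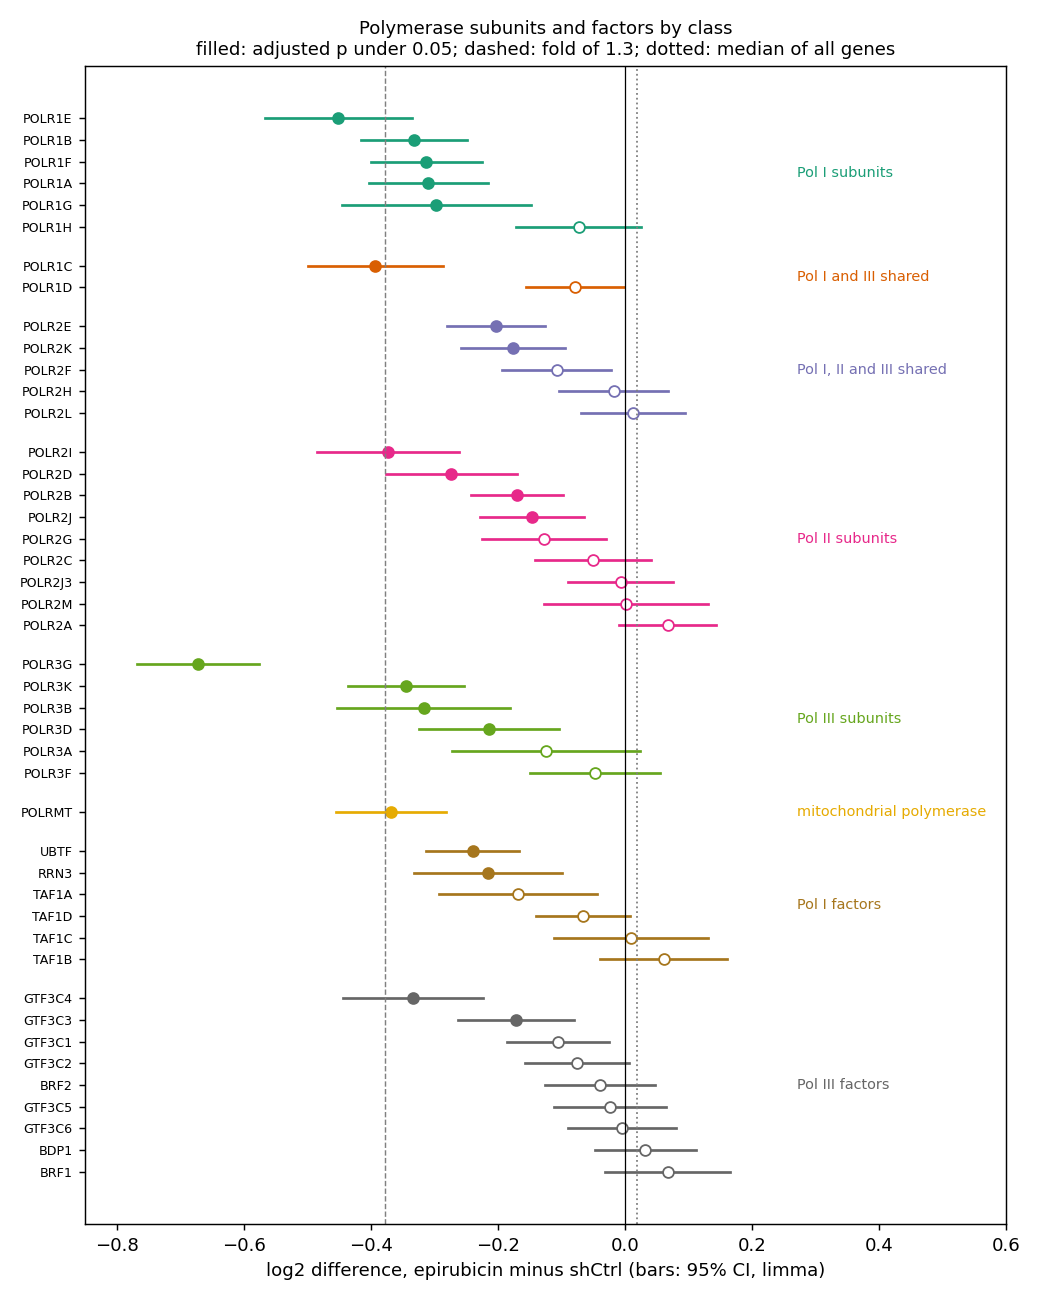
The log2 difference, epirubicin minus shCtrl, on the horizontal axis for each of the 44 genes, grouped by class, with limma's 95% confidence interval as a bar. Filled points have an adjusted p under 0.05; POLR3G stands farthest to the left at -0.67, and the factors of polymerase III have the class median nearest to 0, at -0.04.

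The array values behind these differences were even within each group. The median over the 44 members of the value minus the gene's shCtrl mean was -0.15, -0.13 and -0.13 on the epirubicin arrays, against -0.003, -0.002 and 0.01 on the shCtrl arrays. For the subunits of polymerase I it was -0.32, -0.30 and -0.32 on the epirubicin arrays, against -0.01, -0.01 and 0.02 on the shCtrl arrays. No single array carried either shift.

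**Figure D2:**
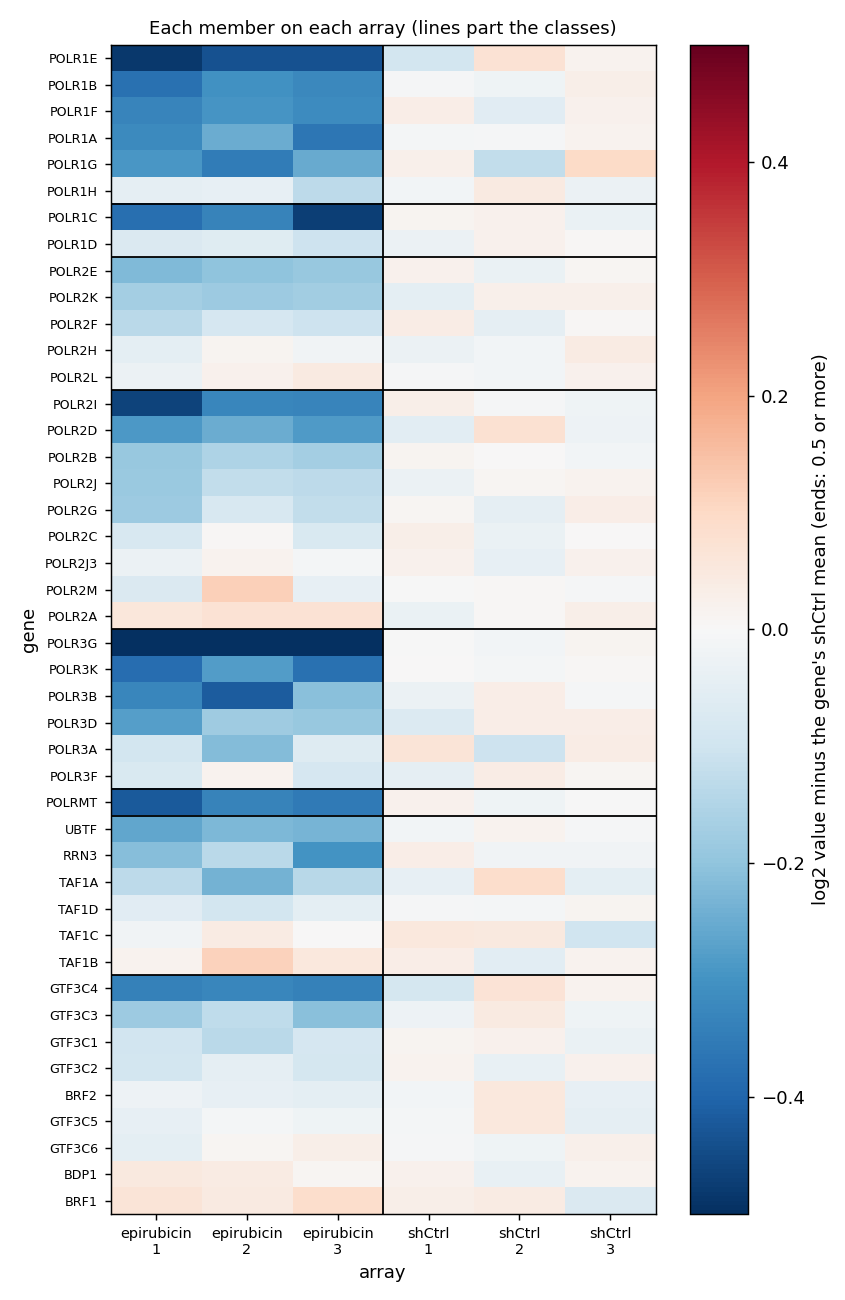
Each row is a gene and each column an array, with the 3 epirubicin arrays left of the 3 shCtrl arrays. The colour is the log2 value minus the gene's shCtrl mean, and the blue of POLR1E, POLR1C, POLR2I, POLR3G and POLRMT is present on all 3 epirubicin arrays.

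Of the 6 subunits that belong to polymerase I alone, 5 fell, against 13.5% of all genes, and 1 was called lower. The sixth, POLR1H, did not pass, and the median log2 difference was -0.31. With dim genes left out 28.1% of genes fell, in a separate fit in which 26 rather than 21 members fell. The class counts here and below are from the fit over all genes. Class counts of the separate fit are not given, so that share is no matched background for them. POLR1E forms with POLR1G a heterodimer of polymerase I that resembles the polymerase II factor TFIIF. POLR1E had log2 values of 7.47, 7.52 and 7.52 on the epirubicin arrays, against 7.86, 8.03 and 7.97 on the shCtrl arrays. The groups did not overlap, and the means were 7.50 ± 0.03 with epirubicin and 7.95 ± 0.08 with shCtrl (SD, n = 3 each; log2 difference -0.45, SE 0.05, limma adjusted p = 0.000894). Its 3 probe sets were all called lower, with differences of -0.54 to -0.45. POLR1G had 8.64, 8.58 and 8.68 with epirubicin, against 8.96, 8.81 and 9.03 with shCtrl, and fell by 0.30 on the log2 scale (SE 0.06, limma adjusted p = 0.0125).

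The catalytic subunits of polymerase I fell by similar amounts. POLR1A, the largest subunit, had 7.68, 7.75 and 7.64 with epirubicin, against 7.99, 7.99 and 8.02 with shCtrl (log2 difference -0.31, CI -0.40 to -0.22). POLR1B, the second-largest, had 8.51, 8.58 and 8.56 with epirubicin, against 8.87, 8.86 and 8.91 with shCtrl (log2 difference -0.33, CI -0.42 to -0.25). The probe set of POLR1B used was the brightest of 6 and showed the smallest of their differences, which reached -0.49. The 4 dimmest were called lower, and the mean over all 6 was -0.41, past the fold threshold. POLR1F, the stalk subunit through which RRN3 contacts the enzyme, fell by 0.31 (SE 0.04, limma adjusted p = 0.00121), with 1 of its 3 probe sets called lower at -0.49. POLR1H, the zinc ribbon subunit that takes part in RNA cleavage, is read by 1 probe set. It had 7.68, 7.68 and 7.59 with epirubicin, against 7.71, 7.77 and 7.69 with shCtrl, and its difference of -0.07 did not pass (CI -0.17 to 0.03, limma adjusted p = 0.248). The groups of POLR1H did not overlap, but their nearest arrays were closer than the spread within either group.

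POLR1C and POLR1D are the assembly subunits that polymerases I and III share. POLR1C had 7.88, 7.92 and 7.78 on the epirubicin arrays, against 8.27, 8.27 and 8.22 on the shCtrl arrays. It was called lower at 1.31-fold (log2 difference -0.39, SE 0.04, limma adjusted p = 0.00107), and 2 of its 3 probe sets were called. This is just past the fold threshold. Without epirubicin replicate 3 the difference was -0.35, after quantile normalization -0.37 and as the mean of its probe sets -0.34, all short of it. POLR1D had 8.15, 8.16 and 8.12 with epirubicin, against 8.19, 8.24 and 8.22 with shCtrl, and did not pass (-0.08, CI -0.16 to -0.001, limma adjusted p = 0.121). It did pass in limma with dim genes left out (adjusted p = 0.0429) and with arrays centred on their medians (-0.11, adjusted p = 0.0449). Under the other alternatives it did not.

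In polymerase III the subunits were uneven. Of 6 measured, 4 fell, against 13.5% of all genes, and 1 was called lower, with a median of -0.27. POLR3G, which with POLR3C and POLR3F forms a heterotrimer that acts in initiation and is known as the form of its subunit found in undifferentiated and many transformed cells, had the largest measured difference among the probe sets used. Its log2 values were 5.10, 5.22 and 5.21 with epirubicin, against 5.85, 5.84 and 5.86 with shCtrl. The groups did not overlap and differed by -0.67, a 1.59-fold difference, with SDs of 0.06 with epirubicin and 0.01 with shCtrl (n = 3 each; SE 0.04, limma adjusted p = 9.23e-05). The epirubicin values lie under the median of all values and the shCtrl values above it. There are no detection calls, so the epirubicin values cannot be told from background and the fold is that of the measured values only. The second probe set of POLR3G lay at 2.61 with epirubicin and 2.81 with shCtrl, below the lower quartile of every array, and differed by -0.20 (adjusted p = 0.0776 in limma over all probe sets). POLR3GL, the paralogue that takes the place of POLR3G in other cells, is not analysed here.

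**Figure D3:**
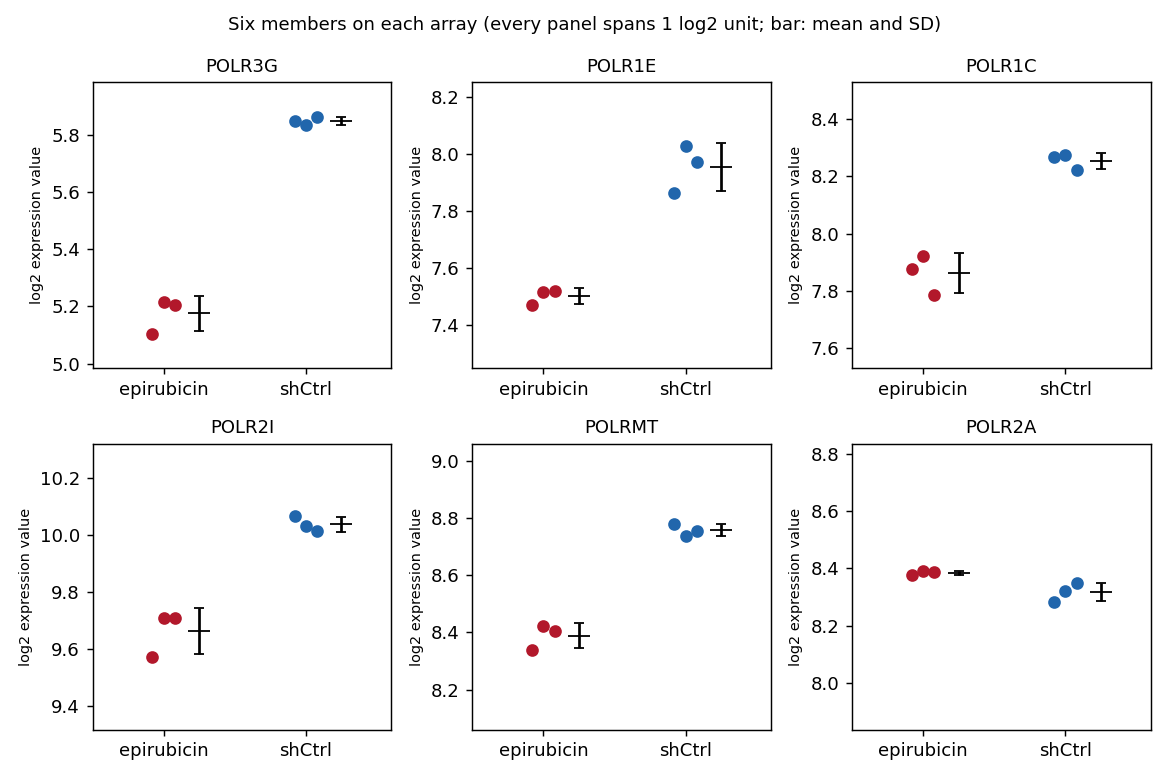
Log2 expression values on each array for 6 genes, chosen after their values were seen, epirubicin left of shCtrl in each panel, with the mean and SD at the side; every panel spans 1 log2 unit. The 2 groups are apart in all panels, downward with epirubicin in the first 5 and upward in POLR2A, whose difference of 0.07 did not pass.

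The other polymerase III subunits were closer to the threshold or to 0. POLR3K, the zinc ribbon subunit, had 9.36, 9.47 and 9.37 with epirubicin, against 9.75, 9.74 and 9.75 with shCtrl, and fell by 0.35 (SE 0.04, limma adjusted p = 0.001). Its second probe set, at 4.26 with epirubicin and 4.32 with shCtrl, differed by -0.06. POLR3B, the second-largest subunit, fell by 0.32 (SE 0.06, adjusted p = 0.00682) and POLR3D, part of the TFIIF-like pair of polymerase III, by 0.21 (SE 0.05, adjusted p = 0.0138), both in limma. POLR3A, the largest subunit, had 6.45, 6.32 and 6.48 with epirubicin, against 6.61, 6.44 and 6.58 with shCtrl. These groups overlapped, and the difference of -0.12 did not pass (CI -0.27 to 0.02). The second brightest probe set of POLR3A differed by -0.25 (adjusted p = 0.045 in limma over all probe sets). POLR3F had 6.87, 6.96 and 6.86 with epirubicin, against 6.90, 6.98 and 6.95 with shCtrl, with overlap and a difference of -0.05 that did not pass.

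Among the subunits of polymerase II, 4 of 9 fell, against 13.5% of all genes, and none was called, with a median of -0.13. POLR2I, a zinc ribbon subunit with a role in start site choice and transcript fidelity, had 9.57, 9.71 and 9.71 with epirubicin, against 10.06, 10.03 and 10.01 with shCtrl. Its difference of -0.37 (SE 0.05, limma adjusted p = 0.0016) was just short of the fold threshold and passed it once each array was centred on its median (-0.41), or without epirubicin replicate 2, epirubicin replicate 3 or shCtrl replicate 3 (-0.40 to -0.38). POLR2D, a stalk subunit, fell by 0.27, though its second probe set differed by -0.05. POLR2B, the second-largest subunit, fell by 0.17 and POLR2J, the smaller assembly subunit, by 0.15. POLR2G, the partner of POLR2D in the stalk, and POLR2C, the larger assembly subunit, differed by -0.13 and -0.05 and did not pass.

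POLR2A, the largest subunit, which carries the heptad repeats that are phosphorylated during transcription, stood apart from the other catalytic subunits in sign. It had 8.38, 8.39 and 8.39 on the epirubicin arrays, against 8.28, 8.32 and 8.35 on the shCtrl arrays. The groups did not overlap, but the difference of 0.07 did not pass (CI -0.01 to 0.14, limma adjusted p = 0.179). Its 3 probe sets ranged from 0.04 to 0.07. POLR2J3, a near-identical copy of POLR2J whose probes may not tell it from its relatives, differed by -0.01. The 2 probe sets naming POLR2J2, POLR2J3 and UPK3BL1 together differed by -0.01 and 0.11, and a probe set naming POLR2J4, POLR2J2 and POLR2J3 by -0.04. A probe set naming POLR2J4 with RASA4 and RASA4B was called lower at -0.39.

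POLR2M, a polymerase II-associated protein that blocks the action of TFIIF, is read alone by 1 probe set. That probe set was the only member below the median of all values in both groups, with means of 4.09 with epirubicin and 4.09 with shCtrl, and it showed no measurable difference (0.001, CI -0.13 to 0.13). The 6 brighter probe sets that name POLR2M with GCOM1, of which 1 also names a pseudogene, differed by -0.09 to 0.10, and none passed.

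The small subunits common to all 3 polymerases had the median nearest to 0 among the subunit classes, at -0.11. Of the 5, 2 fell, against 13.5% of all genes, and none was called. POLR2E had 9.66, 9.68 and 9.69 with epirubicin, against 9.90, 9.85 and 9.89 with shCtrl, and fell by 0.20 (SE 0.03, limma adjusted p = 0.0041); its 5 probe sets ranged from -0.32 to -0.15. POLR2K fell by 0.18 on the probe set used and differed by -0.06 on the second. POLR2F differed by -0.11 and POLR2H by -0.02, and neither passed. POLR2L had 10.88, 10.93 and 10.96 with epirubicin, against 10.91, 10.90 and 10.93 with shCtrl, with overlap and a difference of 0.01.

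Set side by side at matching positions, the enzymes had no fixed order. At the largest subunit the log2 difference was -0.31 in POLR1A, 0.07 in POLR2A and -0.12 in POLR3A. The second-largest subunits fell in all 3 enzymes, by 0.33 in POLR1B, 0.17 in POLR2B and 0.32 in POLR3B. At the zinc ribbon position the order was another, with -0.07 in POLR1H, -0.37 in POLR2I and -0.35 in POLR3K. The larger assembly subunit was at -0.39 in POLR1C and -0.05 in POLR2C, the smaller at -0.08 in POLR1D and -0.15 in POLR2J, and the larger stalk subunit at -0.31 in POLR1F and -0.13 in POLR2G. The positions were matched after the values were seen, and the contrasts between genes were not tested against each other.

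**Figure D4:**
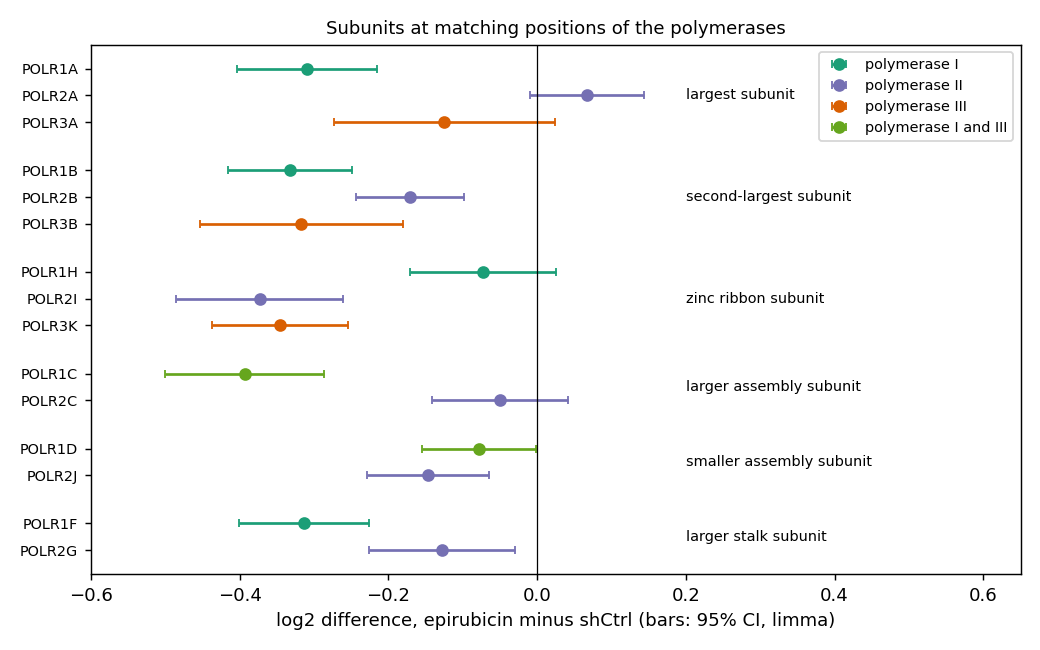
The log2 difference, epirubicin minus shCtrl, with limma's 95% confidence interval, for subunits at matching positions, coloured by polymerase. The interval of POLR2A lies above that of POLR1A and overlaps that of POLR3A, while at the zinc ribbon position POLR1H of polymerase I is the highest.

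Of the 6 initiation factors of polymerase I, 2 fell, against 13.5% of all genes, and none was called. The median was -0.12. UBTF, which binds and bends ribosomal DNA, had 8.28, 8.31 and 8.31 with epirubicin, against 8.53, 8.56 and 8.53 with shCtrl (log2 difference -0.24, SE 0.03, limma adjusted p = 0.0017). Its 4 probe sets ranged from -0.24 to -0.11. RRN3, the growth-regulated factor that joins the enzyme to SL1, had 7.32, 7.40 and 7.24 with epirubicin, against 7.57, 7.52 and 7.52 with shCtrl, and fell by 0.22 (SE 0.05, limma adjusted p = 0.0169). Its 3 probe sets ranged from -0.25 to -0.21, and a probe set that also names the pseudogenes RRN3P1 and RRN3P2 differed by 0.03.

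The TATA-binding protein associated factors of SL1 did not pass on the probe sets used. TAF1A differed by -0.17 (CI -0.29 to -0.04, limma adjusted p = 0.0515) and TAF1C by 0.01. The 5 probe sets of TAF1A ranged from -0.27 to -0.06. In limma over all probe sets, those at -0.25 (adjusted p = 0.00349) and -0.27 (adjusted p = 0.0226) passed, short of the fold threshold. Both are dimmer than the probe set used, and the dimmest, at -0.06 and -0.07, did not pass. TAF1B, with the largest increase of the class, had 6.49, 6.59 and 6.53 with epirubicin, against 6.51, 6.42 and 6.49 with shCtrl, with overlap and a difference of 0.06. TAF1D on its own probe set differed by -0.07. The 5 probe sets that name TAF1D together with small nucleolar RNA genes disagreed with it and with each other, from -0.59 with SNORA18, called lower, to -0.002 with SNORA8 and SNORA25, and are not assigned to TAF1D.

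The factors of polymerase III were nearest to no difference, with 2 of 9 fallen, none called and a median of -0.04. That is 22.2% fallen, against 13.5% of all genes in the same fit. The 28.1% with dim genes left out comes from a separate fit and is not matched to this class count. Both that fell belong to TFIIIC, which recognises the internal promoters of transfer RNA genes. GTF3C4 had 6.27, 6.28 and 6.27 with epirubicin, against 6.52, 6.67 and 6.62 with shCtrl, without overlap (log2 difference -0.33, SE 0.05, limma adjusted p = 0.00232). GTF3C3 fell by 0.17, with 1 of its 5 probe sets, the dimmest, called lower at -0.45. The other TFIIIC genes GTF3C1, GTF3C2, GTF3C5 and GTF3C6 differed by -0.11, -0.08, -0.02 and -0.004 and did not pass. In limma over all probe sets, the second brightest of GTF3C2 differed by -0.23 (adjusted p = 0.0164). That of GTF3C5 differed by 0.27 (adjusted p = 0.00784).

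TFIIIB recruits the polymerase to the start site. BRF1 had 5.79, 5.77 and 5.82 with epirubicin, against 5.76, 5.77 and 5.66 with shCtrl, with a difference of 0.07 that did not pass (CI -0.03 to 0.16, limma adjusted p = 0.286). The mean of its 10 probe sets was -0.07, of the opposite sign. BRF2, which replaces BRF1 at genes with upstream promoters, differed by -0.04 and BDP1, the third component, by 0.03.

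POLRMT, the single-subunit polymerase that transcribes the mitochondrial genome, was close to the fold threshold. It had 8.34, 8.42 and 8.40 with epirubicin, against 8.78, 8.74 and 8.76 with shCtrl, and fell by 0.37 (SE 0.04, limma adjusted p = 0.000616). The other 2 of its 3 probe sets were dimmer and differed by -0.24 and -0.17. The gene passed the fold threshold with arrays centred on their medians (-0.40), without epirubicin replicate 2 (-0.39) and without shCtrl replicate 2 (just past it, at -0.38).

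**Figure D5:**
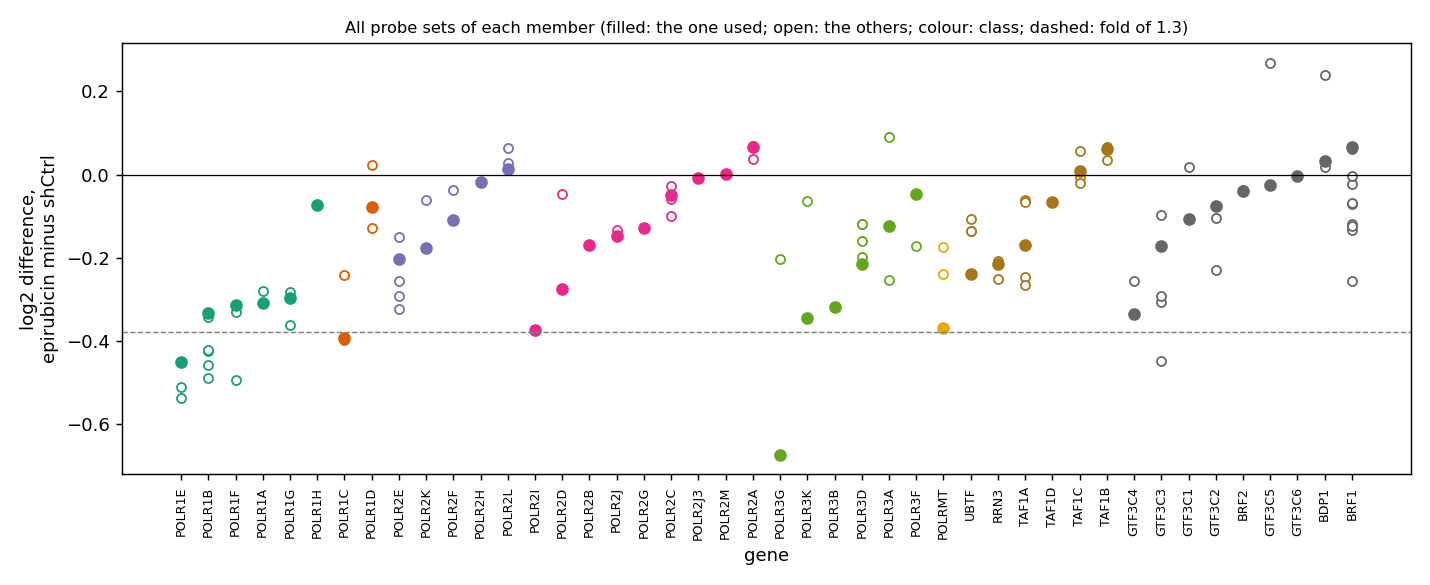
The log2 difference, epirubicin minus shCtrl, of each of the 121 probe sets that name a member alone, with the one used filled and the others open. All probe sets of POLR1A, POLR1B, POLR1E, POLR1F and POLR1G lie below 0, and the second probe set of GTF3C5 stands highest, at 0.27.

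Over all 121 probe sets that name a member alone, 100 had a difference below 0, 12 were called lower and 0 higher, against 2.62% of all 47481 probe sets called lower. By gene, on the probe sets used, 37 of 44 members had a difference below 0, against 7760 of all 17534 genes. Of the 34 members with several probe sets, 24 had all of them below 0, a count that was not made over all genes. In 6 members the probe sets differed in sign. The range was -0.25 to 0.09 in POLR3A, -0.13 to 0.02 in POLR1D, -0.11 to 0.02 in GTF3C1, -0.02 to 0.27 in GTF3C5, -0.02 to 0.06 in TAF1C and -0.26 to 0.07 in BRF1. All lay above 0 in BDP1 (0.02 to 0.24), POLR2A (0.04 to 0.07), POLR2L (0.01 to 0.06) and TAF1B (0.03 to 0.07). Probe sets of a gene share its transcripts and are not replicates.

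Related genes of transcription were taken as whole lists, also with earlier results known. Of 110 measured, 8 were called lower and 1 higher, against 2.14% and 4.36% of all genes. By adjusted p alone 47 fell and 9 rose, against 13.5% and 15.6% of all genes, shares that also stand behind each list's counts below. The median of the 110 was -0.11. Most of them lay above the median of all values in at least 1 group. In the separate fit with dim genes left out, 28.1% of genes fell, and list counts of that fit are not given here. The 8 called lower include MYC, the growth-promoting transcription factor that acts on all 3 polymerases. MYC had 11.07, 11.03 and 11.10 with epirubicin, against 11.58, 11.57 and 11.61 with shCtrl (log2 difference -0.52, SE 0.03, limma adjusted p = 0.000123). It was the only 1 of 10 regulators of polymerase I called, 5 of which fell and 1 rose. Of 16 genes for assembly of the polymerases, 3 were called lower and 9 fell, with a median of -0.16. They were RUVBL1 (-0.55, SE 0.05) and RUVBL2 (-0.41, SE 0.03), ATPases of the R2TP chaperone complex, and PFDN6 (-0.42, SE 0.05), a prefoldin subunit.

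The general factors of polymerase II went both ways, with 8 of 31 fallen and 7 risen, and GTF2F2, a subunit of TFIIF, the only one called (-0.43, SE 0.04). Of 27 elongation factors, 11 fell and 1 rose. NELFCD, a subunit of the negative elongation factor, was called lower (-0.43, SE 0.04) and ELL3, with means of 3.39 with epirubicin and 2.91 with shCtrl, below the lower quartile of every array, was called higher (0.49, SE 0.06). Among 14 regulators of polymerase III and small nuclear RNA genes, 5 fell. SNAPC1, a subunit of the small nuclear RNA activating complex (-0.50, SE 0.08), and NFIA (-0.58, SE 0.10) were called lower, both with group means under the median of all values. Of 12 nuclear genes of mitochondrial transcription and its DNA, 9 fell and none was called, with a median of -0.26.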

How the data were processed

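Values were the authors' deposited log2 expression values, covering 47481 probe sets on each array. The scale was inferred from their range (1.41 to 13.73). Per the submitters' processing notes affy was used; how background, normalization and summary were done is not stated in the labels. Array medians lay between 5.52 and 5.57, and nothing was normalized further. A change in total RNA per cell would not be seen in values brought to one scale. The number of arrays limits the precision.

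Of the probe sets, 43976 named 1 gene, 1558 several and 1947 none, by the platform annotation. Symbols were updated by Entrez number against the RefSeq table of GRCh38.p14 (43954 matched). The contrast used lmFit and eBayes of limma 3.58.1 (R 4.3.3), on 6 arrays with no covariate, over all 17534 genes. It used Benjamini-Hochberg adjustment and 95% confidence intervals (CI). Probe sets were fitted likewise over the whole table. The fit over genes was also run on simulated data. There, true changes of 1.3-fold were called in 37.9% of cases and those of 1.5-fold in 86.4%. Many changes near the fold threshold are thus not called. All members are named. Members called, and the largest decrease and increase of each class, are given on every array, and up to 3 called genes a direction come from each related list. The members and lists were chosen with earlier results of these data known, and counts by adjusted p alone were made a reported count after the values were seen. Alternatives covered the choice of probe set, normalization, dim genes, the variance prior, array weights, fold thresholds, the replicate number as a block and each array left out.

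Same-numbered arrays did not deviate together from their group means (correlation -0.06 to -0.0004 over the 3 numbers), so the numbers were not taken as pairs.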

Additional observations from a re-analysis of the deposited data

How the results depend on the processing

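The 3 members called lower became 5 with arrays centred on their medians, with the median of all genes at -0.01 in place of 0.02, and gave 646 genes higher and 485 lower, against 765 and 376. They became 2 with the second brightest probe set and 2 after quantile normalization, 21 with no fold threshold and 1 with a fold of at least 1.5, and 3 to 5 with single arrays left out, 5 without epirubicin replicate 2. No member was called higher in limma under any alternative run, and none of the 7 with a difference above 0 had an unadjusted p under 0.05. With the replicate block the counts were again 3 lower, 0 higher and 21 fallen. The 21 fallen members ranged from 19 to 21 with single arrays left out and from 18 to 26 over the other settings. The 9 related genes called became 56 with no fold threshold and 0 with a fold of at least 1.5, and ranged from 9 to 10 with single arrays left out. With the second brightest probe set the medians of the shared subunits of all 3 polymerases and of polymerase II were -0.04 and -0.05, in place of -0.11 and -0.13. The mean of all probe sets gave -0.18 for polymerase III, in place of -0.27.

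By adjusted p alone no member rose on the probe sets used, but GTF3C5 rose on its second brightest probe set (0.27, limma adjusted p = 0.00886) and on the mean of its probe sets (0.12, adjusted p = 0.0204), and BDP1 rose on its second brightest (0.24, adjusted p = 0.0483). The second brightest of GTF3C5 had means of 3.89 with epirubicin and 3.62 with shCtrl. That of BDP1 had 5.12 and 4.88, and all of these lie under the median of all values. Members near 0 changed sign, none of them past the fold threshold. Quantile normalization gave 0.016 for POLR2H, 0.0142 for POLR2J3, -0.0372 for POLR2M, -0.0148 for TAF1C and 0.0296 for GTF3C6. Centring of arrays gave -0.0197 for POLR2L, -0.0314 for POLR2M, -0.0228 for TAF1C and -0.000533 for BDP1. Array weighting gave -0.0074 for POLR2M. The second brightest probe set gave -0.00664 for TAF1C, 0.0195 for GTF3C1 and 0.27 for GTF3C5. The mean of all probe sets gave 0.12 for GTF3C5 and -0.0667 for BRF1. With single arrays left out, POLR2H ranged from -0.0333 to 0.00319, POLR2L ranged from -0.00364 to 0.0337, POLR2J3 ranged from -0.0283 to 0.0047, POLR2M ranged from -0.057 to 0.0382, TAF1C ranged from -0.041 to 0.0367, GTF3C5 ranged from -0.0463 to 0.00242 and GTF3C6 ranged from -0.0206 to 0.0185. The cause of these shifts was not tested. Without detection calls, values under the median cannot be told from background.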
